A study of Mus musculus with 41 samples.

Results

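Cytosolic ribosomal protein genes were followed across B cell development in the mouse. Members were taken by name: a probe set (the group of short probes that reads 1 transcript on the array) had to be annotated to exactly 1 gene whose symbol was Rpl or Rps with a number, Rplp0, Rplp1, Rplp2 or Rpsa, and S6 kinases and pseudogenes were left out. This gave 49 genes, 23 of the small and 26 of the large ribosomal subunit, among 18193 genes with a probe set of 1 symbol. The rule used symbols and no expression value, but it was chosen with earlier results of these data known. Each gene was read from the 1 of its probe sets with the highest mean signal (105 probe sets in all). Of the 49 members, 47 passed the filter on low values and were tested among 11947 genes; Rps16 and Rpl37 did not pass. A further 28 symbols of this form were named only on probe sets shared by several symbols and are not analysed here. Of the members, 15 were also named on such shared probe sets, which were not read. Among these 15 were Rps16 (2 shared probe sets) and Rpl37 (3).

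The RNA came from flow-sorted cells of C57BL/6 mice with wild-type Pax5 and no treatment. There were 7 arrays of the common lymphoid progenitor (CLP), 7 each of Hardy's fractions A and B, and 5 each of C, D, E and F; as background, A to F run over pre-pro-B, pro-B, late pro-B and large pre-B, small pre-B and immature B cells to mature B cells. Genotype, strain, extraction with PicoPure, amplification with NuGEN Ovation Pico and the biotin label were common to all arrays, and the labels state neither age, tissue, sorting gates nor whether arrays of a population came from separate animals. Every p-value below therefore rests on the spread among arrays of unstated origin, which could be technical. Values are MAS5 signals that the authors had scaled so that each array's trimmed mean was 500; differences are of log2(signal + 32), the later population minus the earlier one, with the standard error (SE) of the limma fit, and a gene was called where its p, adjusted by Benjamini-Hochberg over all tested genes, was under 0.05.

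Ribosomal proteins join ribosomal RNA in the small subunit, which decodes messenger RNA, and in the large subunit, which forms peptide bonds. Their messenger RNAs are among the most abundant in growing cells, and many start at a C followed by a run of pyrimidines (the 5′ terminal oligopyrimidine or TOP motif), through which mTORC1 and LARP1 control their translation. Loss of 1 copy of several of them, RPS19 first among these in patients, causes Diamond-Blackfan anaemia, and mice without Rpl22 have a block in alpha-beta T cell development.

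The start regions of 43 of the 49 members were found in the RefSeq promoter table (GRCm38.p6). At the annotated start, 8 of these 43 genes (18.6%) had a C followed by at least 4 pyrimidines on the gene's own strand, against 3.01% of 27025 genes in the table. A run of at least 8 pyrimidines on the gene's strand within 15 bases before and 15 after the start was held by 19 of 43 members (44.2%), against 13.9% of all genes. The ETS core CCGGAAG, searched on both strands in the 250 bases before the start, was held by 17 of 43 members (39.5%), against 7.83% of all genes. The GC box GGGCGG was held by 48.8% of members and 35.4% of all genes, and TATAAA by 9.3% of members and 14.3% of all genes. Such matches describe these windows and show no binding. The 8 genes with the C and pyrimidines at the start are shown first, then 4 genes on which results below turn; each window has 30 bases, the annotated start is base 16, and capitals mark the longest pyrimidine run.
Rpl38: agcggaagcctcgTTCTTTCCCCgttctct
Rplp2: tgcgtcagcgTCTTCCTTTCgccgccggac
Rpl35: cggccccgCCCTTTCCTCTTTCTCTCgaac
Rps18: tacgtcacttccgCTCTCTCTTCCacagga
Rps10: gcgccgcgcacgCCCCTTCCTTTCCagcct
Rps6: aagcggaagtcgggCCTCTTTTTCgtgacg
Rpl14: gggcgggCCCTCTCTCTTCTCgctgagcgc
Rps27: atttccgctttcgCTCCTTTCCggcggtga
Rps28: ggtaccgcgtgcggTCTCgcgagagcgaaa
Rpsa: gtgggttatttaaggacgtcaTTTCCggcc
Rpl11: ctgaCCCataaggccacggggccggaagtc
Rps27l: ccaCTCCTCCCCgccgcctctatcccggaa

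In GRCm38.p6 the windows lie on the plus strand at chr11:114668565-114668594 (Rpl38), chr7:141447636-141447665 (Rplp2), chr9:120571502-120571531 (Rpl14), chr9:120127751-120127780 (Rpsa) and chr9:66946071-66946100 (Rps27l). They lie on the minus strand at chr2:39005117-39005146 (Rpl35), chr17:33955651-33955680 (Rps18), chr17:27635230-27635259 (Rps10), chr4:86857353-86857382 (Rps6), chr3:90213634-90213663 (Rps27), chr17:33824548-33824577 (Rps28) and chr4:136053379-136053408 (Rpl11). The calls of the 8 genes with the pyrimidine start differed: in A against CLP 4 of them were called higher and 1 lower (11.5% and 25.5% of all tested genes), in C against B 0 higher and 5 lower (14.2% and 8.8%), and in F against CLP 1 higher and 2 lower (15.2% and 26.6%).

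Several measures of the whole array differed between populations. The 99th percentile of an array's signals averaged 9195 for CLP, 14890 for A, 13880 for B, 9041 for C, and 10200 to 10860 for D to F, while array medians averaged 118.5 in CLP, 98.06 in A, 80.3 in B and 117.6 to 121.7 in C to F. The Gapdh 3′ to 5′ signal ratio, a measure of RNA quality and amplification, averaged 4.17 in CLP, 12.7 in A, 7.52 in B and 4.95 to 5.78 in C to F, while the same ratio of actin averaged 1.27 in CLP, 1.10 in A, 1.07 in B and 1.12 to 1.23 in C to F. A arrays 4, 6 and 7 and B arrays 1 and 4 correlated least with the other arrays of their population. Of 6 named B lineage markers, 1 reached the array median on all A arrays, against 6 in CLP, B, C and D and 5 in E and F. Their summed signal varied widely in A, from 1580 to 65910 (median 5825), and was 51390 to 82380 in B. The summed signal of 7 natural killer cell markers was 29470 to 57010 in A and 794.1 to 6802 on the arrays of the other populations. The summed cycling markers were 29160 to 36990 in CLP, 34510 to 74210 in A, 44740 to 76330 in B, 24440 to 37640 in C, 35990 to 42220 in D, 17830 to 30550 in E and 19230 to 29550 in F. Summed myeloid markers were 58260 to 80510 in C and reached 102100 on 1 E array, and 4655 to 58330 in CLP, A, B, D and F. The part of any of these in the results was not tested.

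Ribosomal protein genes stood near the top of every array. The median member lay at the 99.15th percentile of tested genes for CLP, 99.09 for A, 99.19 for B, 99.26 for C, 98.63 for D, 98.66 for E and 98.81 for F (means over arrays, SD 0.0875 to 0.488). Members supplied 3.04% of the summed signal of tested genes for CLP, 5.06% for A, 4.53% for B, 3.14% for C, 3.15% for D, 3.31% for E and 3.84% for F. In all, 11 of 47 members were in the top 1% and 28 in the top 5% on every array. Not every member was bright on its chosen probe set: those of Rps27, Rps4l, Rpl39l and Rpl3l reached the array median on only 20, 9, 11 and 11 of 41 arrays. Rps27 is also named on 1 probe set shared by several symbols, which was not read, so its abundance is not settled here.

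On the authors' scaling the member signals were highest in fractions A and B. The median member of an array averaged 13.55 ± 0.09 (SD, n = 7) for CLP, 14.40 ± 0.36 (n = 7) for A, 14.31 ± 0.28 (n = 7) for B, 13.59 ± 0.18 (n = 5) for C, 13.49 ± 0.11 (n = 5) for D, 13.55 ± 0.10 (n = 5) for E and 13.72 ± 0.04 (n = 5) for F, in log2(signal + 32). After quantile normalization, which gives all arrays the same distribution, it averaged 13.91 ± 0.05 for CLP, 13.93 ± 0.22 for A, 13.94 ± 0.09 for B, 13.99 ± 0.09 for C, 13.63 ± 0.07 for D, 13.68 ± 0.09 for E and 13.72 ± 0.05 for F. The authors' scale thus set A and B apart from the other populations, and the quantile scale set the means of D, E and F below those of the earlier populations, with overlap of the A arrays (13.51 to 14.13).

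**Figure D1:**
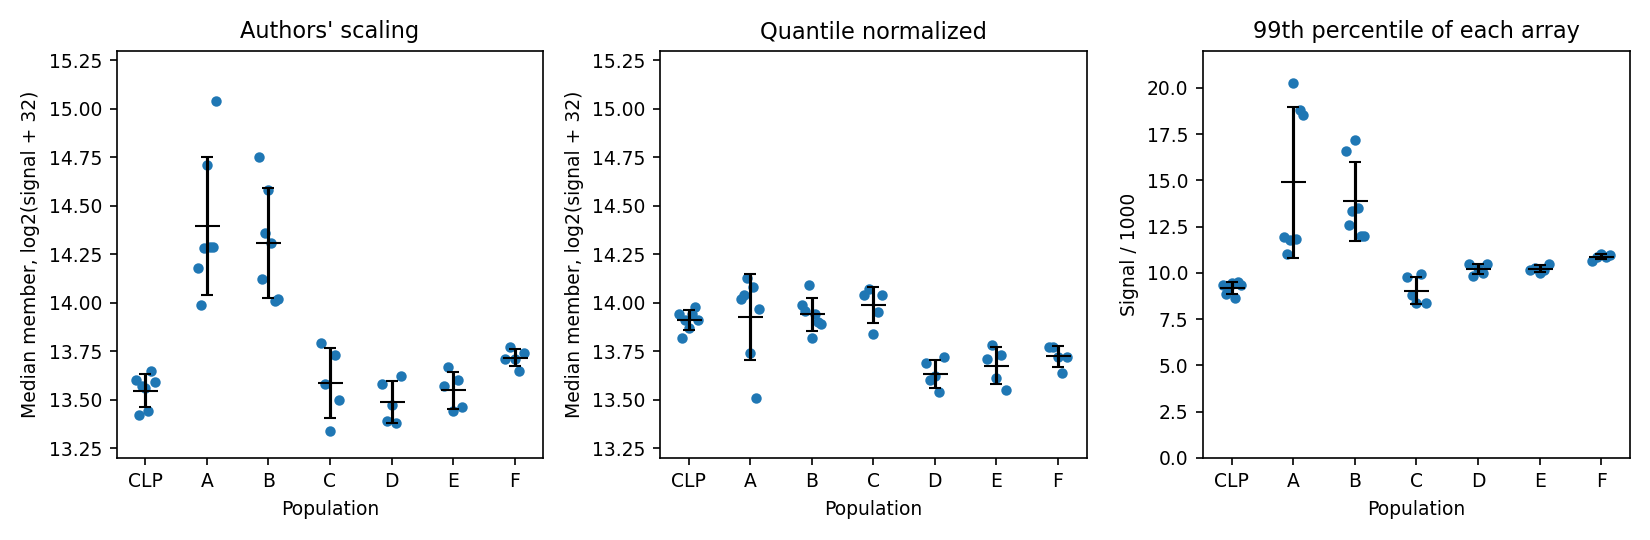
Each point is 1 array, placed by population from CLP to F; bars give mean and SD. The left panels show the median ribosomal protein gene in log2(signal + 32), by the authors' scaling (14.40 in A, 13.55 in CLP) and after quantile normalization (13.93 in A, 13.91 in CLP), and the right panel the array's 99th percentile of signal divided by 1000, which is also highest in A and B.

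Of the 47 tested members, 43 differed among the 7 populations (moderated F-test, adjusted p under 0.05), where 73.3% of all tested genes did. With quantile normalization 34 did, against 70.8% of all genes, and with each array's median member subtracted, which removes what the members share, 37 did, against 95.2% of all genes, since the subtraction shifts every gene. Rps25, Rps27, Rpl22l1 and Rpl39l did not pass on the authors' scale. The largest F statistics there were those of Rpl10a, Rpl7a, Rpl11, Rpl38, Rpl37a and Rpl4, all proteins of the large subunit. On the quantile scale Rpl37a and Rpl4 did not pass (moderated F-test, adjusted p = 0.324 and 0.552). The largest F statistics on that scale were those of Rpl22, Rpsa, Rps27l and Rpl10a, from both subunits. By population mean on the authors' scale, 27 members were highest in A and 10 in B, and 16 were lowest in CLP and 10 in D. After quantile normalization 15 were highest in C and 14 lowest in D. Across the 7 population means, 26 members had a correlation above 0.9 with the median member. The lowest correlations were those of Rps27 (r = -0.74), Rps25 (-0.69), Rpl39l (-0.50), Rpl12 (-0.36), Rpl39 (-0.33) and Rpl3l (-0.32); the 7 means share their arrays with the median member, so these are descriptions.

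**Figure D2:**
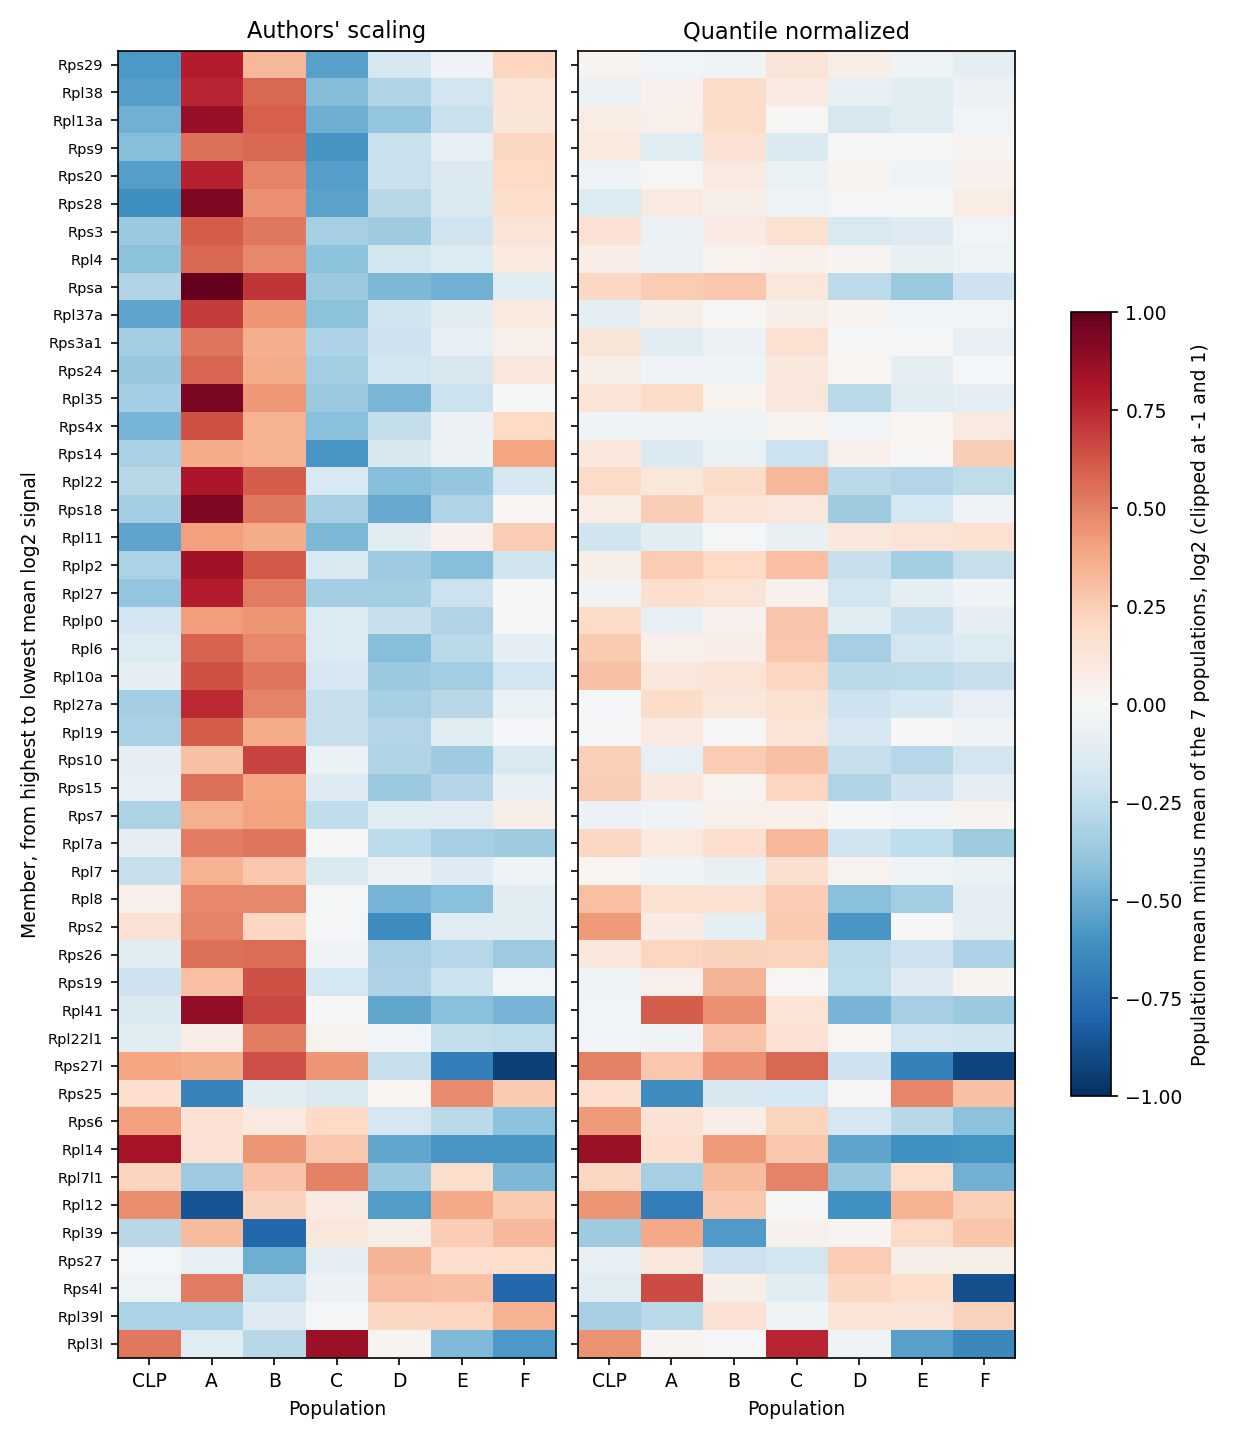
Rows are the 47 tested members from highest to lowest mean signal and columns the populations from CLP to F; colour gives the population mean minus the mean of the 7 populations in log2 (red above, blue below). By the authors' scaling (left) the upper rows are red in A and B together, a block that is faint after quantile normalization (right), while Rps27l and Rpl14 are below their mean in F on both sides.

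Between fraction A and CLP, 33 of 47 members were called higher and 2 lower on the authors' scale, where 11.5% of all tested genes were called higher and 25.5% lower. The median member differed by 0.72 and the median of all tested genes by -0.22. On that scale signals of 25 members did not overlap between the A and CLP arrays with A higher, against 3.98% of all genes. On the quantile scale 0 members were so separated with A higher and 1 with A lower. The share of all genes was not counted there. After quantile normalization 5 members were called higher and 6 lower (12.5% and 21.1% of all genes), and the median difference was -0.05 (-0.11 for all genes). Without A arrays 4, 6 and 7 the authors' scale gave 35 higher and 1 lower (13.1% and 17.4% of all genes) with a median of 0.59, and the 99th percentile of the remaining A arrays was still 11010 to 11930, against 8641 to 9484 in CLP.

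Among small subunit genes 15 of 22 were called higher in A than in CLP, and none lower. Rps28, a small subunit protein, had signals of 22104 to 214364 (median 27732) in A, against 12435 to 16090 (median 15184) in CLP. The arrays did not overlap, A array 6 stood far above the rest, and the difference was 1.55 (SE 0.27, adjusted p = 1.65e-05). Rps29, a zinc-binding protein of the same subunit, had signals of 32533 to 116289 (median 38863) in A and 18137 to 22888 (median 21276) in CLP, a difference of 1.36 (SE 0.19, adjusted p = 2.84e-07). Rpsa, also known as the laminin receptor precursor, had signals of 21340 to 81709 (median 31338) in A and 14420 to 18476 (median 16575) in CLP, a difference of 1.32 (SE 0.22, adjusted p = 6.59e-06). For both the lowest A array lay above the highest CLP array. Rps20, another protein of the small subunit, was higher by 1.32 (SE 0.18, adjusted p = 2.49e-07). Rps6, the substrate of S6 kinase, was not called: it had signals of 1666 to 2763 (median 2269) in A and 1987 to 3152 (median 2788) in CLP, which overlapped.

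Among large subunit genes 18 of 25 were called higher in A than in CLP and 2 lower. Rpl13a, which in human cells also acts in a translation-silencing complex, had signals of 21953 to 98333 (median 30532) in A and 14965 to 19445 (median 18426) in CLP, a difference of 1.35 (SE 0.23, adjusted p = 1.43e-05). Rpl38, known in mouse embryos for its role in translating Hox mRNAs, had signals of 29027 to 78626 (median 34420) in A and 14985 to 18484 (median 17978) in CLP, a difference of 1.31 (SE 0.16, adjusted p = 1.39e-08). Neither gene's arrays overlapped. Rpl12, which sits at the base of the stalk that recruits translation factors, was called lower: it had signals of 153 to 1055 (median 922) in A and 965 to 2210 (median 1256) in CLP, a difference of -1.33 (SE 0.29, adjusted p = 0.000366). The 3 lowest values were those of A arrays 4, 6 and 7, and the A and CLP ranges overlapped. Rpl14 was lower as well, at -0.68 (SE 0.21, adjusted p = 0.00882). The Rpl12 call was lost with array weights, and the Rpl14 call with array medians centred and with only the A and CLP arrays in the fit. The stalk genes Rplp0, its anchor, and Rplp2, an acidic stalk protein, were higher by 0.61 (SE 0.17, adjusted p = 0.00465) and 1.16 (SE 0.17, adjusted p = 5.76e-07).

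The calls in A were mostly those of bright members. Split at a mean log2 signal of 13, a value chosen after the data were seen, 31 of 33 brighter members were called higher in A and none lower, with a median difference of 0.98; of 14 dimmer members 2 were called higher and 2 lower, with a median of -0.05. Bright genes in general did the same: of 293 other tested genes at or above 13, 78.5% were called higher and 2.05% lower, with a median difference of 0.73. After quantile normalization 3 of the 33 brighter members were called higher and 4 lower, and 19.1% and 25.6% of the 293 other genes. In C against B, 32 of the 33 brighter members were called lower, and 74.4% of the 293 other genes.

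**Figure D3:**
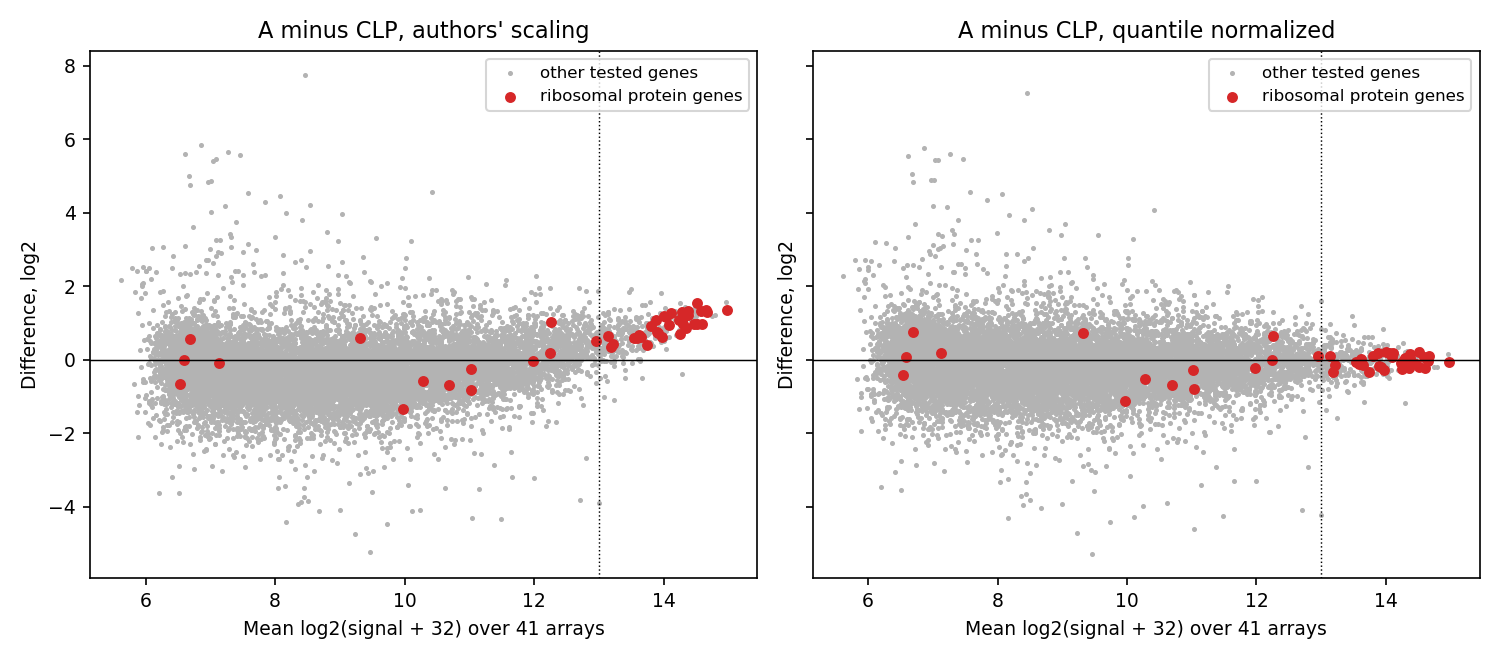
Points are the 11947 tested genes (ribosomal protein genes in red, other genes in grey) by mean log2(signal + 32) over the 41 arrays and by the difference of A minus CLP in log2. The dotted line is at 13; by the authors' scaling (left) members right of it lie between 0.34 and 1.55 and follow the upward bend of the grey cloud, and after quantile normalization (right) they lie between -0.35 and 0.22.

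Different probe sets of 1 gene did not always move together. Of 23 members with at least 2 probe sets above the filter, the brightest probe set was above 0 in A against CLP in 20 and the dimmest in 8, and in 12 the signs were opposite. The median difference was 1.03 over the brightest and -0.45 over the dimmest probe sets. For Rps20 the brightest probe set differed by 1.32 and the dimmest by -1.69. The values were 0.98 and -1.43 for Rps9, 0.97 and -1.62 for Rps24, and 1.09 and -1.43 for Rpl22. Mean log2 signals were 8.1 to 9.0 on these dimmest and 14.2 to 14.6 on the brightest probe sets. Other probe sets of these genes with means of 13.66 to 14.52 were above 0. They gave 1.105 for Rps20, 0.627 for Rps9, 0.755, 0.890 and 0.767 for Rps24, and 0.956 for Rpl22. A further Rps20 probe set, with a mean of 9.63, gave -1.04. Also opposite in sign, the dimmest probe set reached the array median on 6 of 41 arrays in Rps18, 13 in Rpl35 and 41 in Rpl13a and Rps3. All 3 probe sets of Rps28 were above 0, with 1.55 on the brightest, and so were the 3 of Rps29, with 1.36 on the brightest and 1.33 on the dimmest. Other genes whose brightest probe set was at or above 13 showed the same split, with medians of 0.73 and -0.21 and opposite signs in 58% of 250 genes. The chosen probe sets of 34 of the 49 members carry a suffix of some kind. In 14 it is x_at, and in Rpl22 it is s_at, which mark possible cross-hybridisation. Signals of these genes may include near-identical copies.

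**Figure D4:**
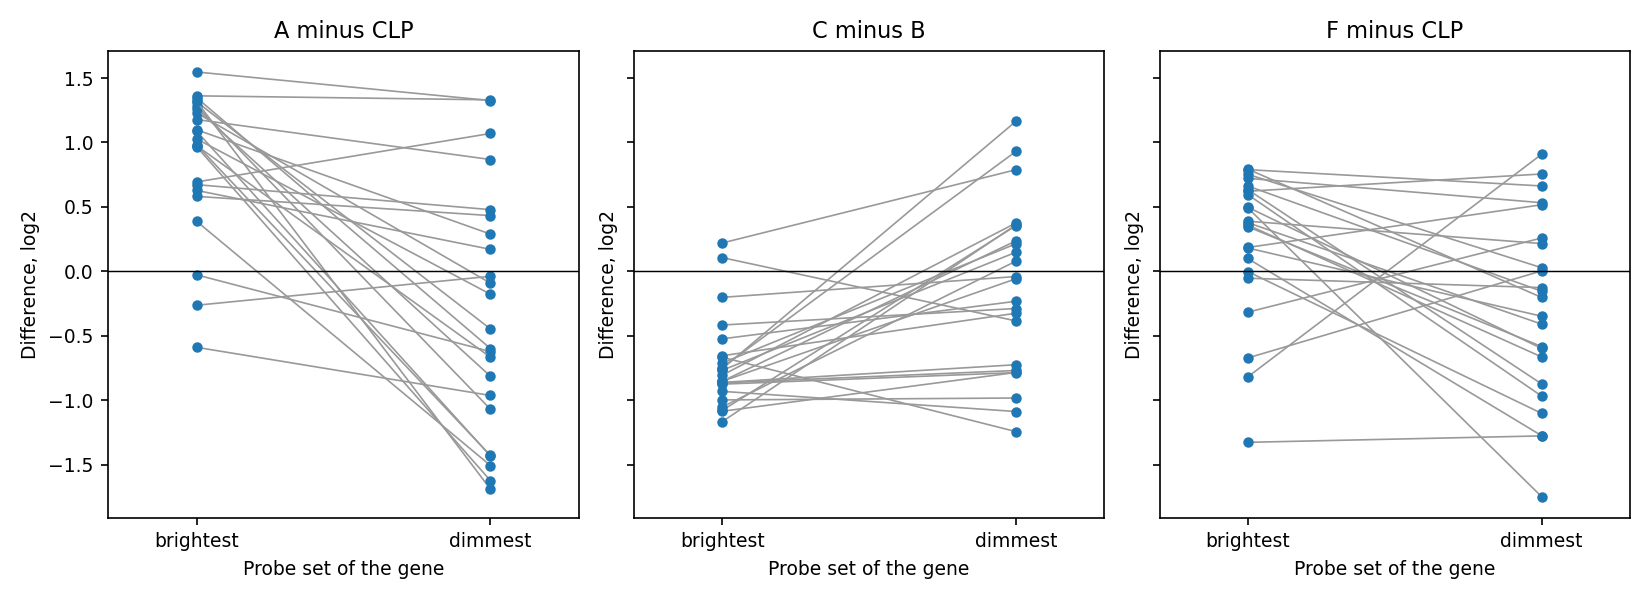
Each line joins the brightest and the dimmest probe set of 1 of 23 members, with the difference in log2 on the vertical axis, for A minus CLP, C minus B and F minus CLP. In A minus CLP 20 of the brightest and 8 of the dimmest lie above 0, and in C minus B 2 of the brightest and 10 of the dimmest.

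Between B and A few members changed: 2 were called higher and 1 lower, where 16.8% and 14.5% of all tested genes were, and the median difference was -0.15. Rpl12 was higher by 1.09 (SE 0.29, adjusted p = 0.00347), with signals of 730 to 1761 (median 1050) in B and 153 to 1055 (median 922) in A. Rps19 was higher by 0.34 (SE 0.12, adjusted p = 0.0305), a call lost when A array 6, B array 1 or B array 3 was left out. Rpl39, a short protein of the exit tunnel, was lower by 1.10 (difference -1.10, SE 0.29, adjusted p = 0.00366), with signals of 164 to 627 (median 479) in B and 351 to 2300 (median 642) in A. The B and A arrays overlapped for all 3 genes. The counts depended on the arrays used: without A arrays 4, 6 and 7 there were 7 higher (13.3% of all genes), without B arrays 1 and 4 there were 14 lower (14.3%), and with only the B and A arrays in the fit limma called 0 in either direction (4.95% of all genes higher and 6.29% lower).

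Between fraction C and fraction B, 34 of 47 members were called lower and 2 higher, where 8.8% of all tested genes were called lower and 14.2% higher. The median member differed by -0.67 and all tested genes by 0.19. On the authors' scale every C array lay below every B array for 27 members, against 5.47% of all genes. On the quantile scale this held for 1 member, and for 3 every C array lay above. The share of all genes was not counted there. After quantile normalization 2 members were called lower and 3 higher (7.16% and 8.59% of all genes), and the median difference was 0.04 (0.006 for all genes). Without B arrays 1 and 4 the authors' scale gave 28 lower and 1 higher (8.61% and 12.2% of all genes) with a median of -0.55.

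The lower genes in C were 16 of 22 in the small and 18 of 25 in the large subunit. Rps9 had signals of 17894, 13420, 15243, 17935 and 16424 in C, against 25155 to 70294 (median 32872) in B, a difference of -1.17 (SE 0.19, adjusted p = 9.11e-06). Rpsa had 19134, 15507, 12809, 17440 and 13918 in C, against 23042 to 58437 (median 28987) in B, a difference of -1.09 (SE 0.24, adjusted p = 0.000687). In both all C arrays lay below all B arrays, and B arrays 1 and 4 were the highest. Rpl13a, Rps20 and Rpl38 differed by -1.08 (SE 0.26), -1.05 (SE 0.20) and -1.01 (SE 0.17), with adjusted p of 0.00155, 0.000105 and 2.53e-05. Rps9 and Rps20 were the only 2 members called lower after quantile normalization as well, at -0.29 (SE 0.09, adjusted p = 0.0191) and -0.15 (SE 0.05, adjusted p = 0.0225), and both have a dimmer probe set that was above 0 in this comparison (0.36 and 0.08, authors' scale). Their remaining probe sets were below 0 on that scale, at -0.78 for Rps9 and at -1.05 and -0.59 for Rps20. The 2 members called higher in C were Rpl3l, a paralogue of Rpl3 known from muscle (1.14, SE 0.35, adjusted p = 0.0152), and Rpl39 (0.90, SE 0.32, adjusted p = 0.0382). Both calls were lost after quantile normalization and with array medians centred, and the 3 members called higher on the quantile scale were other genes, Rpl7, Rps29 and Rps3a1. The Rpl3l call was lost without C array 5, and its signals, 57.7 to 225 in C and 5.2 to 96.5 in B, are near the bottom of the arrays; the Rpl39 call was lost in 8 of 12 fits that left 1 array out.

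Between the small pre-B fraction D and fraction C the scales differed again, in the other order. On the authors' scale 2 members were called lower and 0 higher by limma, where 13.6% and 7.46% of all tested genes were called. At an unadjusted p under 0.05 there were 6 lower and 2 higher (20.7% and 12.7% of all genes), and with only the D and C arrays in the fit 10 lower and 6 higher were called (26.5% and 17.2% of all genes). After quantile normalization 19 of 47 were called lower and 0 higher (at an unadjusted p under 0.05, 27 lower and 0 higher, against 22% and 13.7% of all genes), where 15.8% and 8.93% of all genes were, with a median of -0.30 against -0.10 for all genes, and 16 to 21 were called lower when 1 array was left out in turn. Of the 19, 7 were in the small and 12 in the large subunit. For 19 members every D array then lay below every C array, against 17.7% of all genes. Of the 33 members at or above a mean of 13, 16 were called lower on that scale, against 17.4% of 293 other genes as bright.

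Rpl22, which binds RNA and whose loss in mice arrests T cells of the alpha-beta lineage, averaged 13.95 ± 0.08 in D and 14.55 ± 0.04 in C on the quantile scale (log2, SD, n = 5 each), a difference of -0.60 (SE 0.06, adjusted p = 1.83e-10). Its signals on the authors' scale were 14604, 13738, 13204, 12966 and 14342 in D, against 18353, 15857, 15108, 19021 and 15116 in C, which did not overlap, but the difference of -0.27 was not called (adjusted p = 0.331). Rplp2 averaged 13.78 ± 0.17 in D and 14.32 ± 0.17 in C on the quantile scale, a difference of -0.53 (SE 0.11, adjusted p = 0.000363). Rpl6 and Rpl8 were lower there by 0.60 and 0.67 on the log2 scale (differences -0.60 and -0.67, adjusted p = 1.68e-06 and 0.000212). Rps28, Rps20, Rps9 and Rpl11 were not called on the quantile scale, with differences of 0.04, 0.09, 0.14 and 0.18. Rpl14 and Rps27l were called lower on both scales: Rpl14 by -0.79 (SE 0.25, adjusted p = 0.0169) and Rps27l by -0.67 (SE 0.23, adjusted p = 0.0318) on the authors' scale. Leaving out C array 1, C array 2 or D array 4 ended both calls there, and leaving out D array 1 or D array 2 ended that of Rps27l.

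Few members were called between neighbouring fractions after D. By limma 0 members were called between E and D in either direction on the authors' scale, where 3.89% of all tested genes were called higher and 4.21% lower. At an unadjusted p under 0.05 there were 1 higher and 0 lower (8.46% and 8.58% of all genes), and with only the E and D arrays in the fit 5 higher and 1 lower (12.8% and 12.3% of all genes). Rpl12 alone was called higher after quantile normalization (5.01% of all genes). Rpl12 had signals of 934, 1041, 1496, 1405 and 1673 in E, all above the 427, 661, 688, 718 and 859 of D, a difference of 0.95 on the quantile scale (SE 0.30, adjusted p = 0.0296) and 0.93 on the authors' scale (SE 0.34, adjusted p = 0.0942). Between F and E limma called 0 members on either scale. At an unadjusted p under 0.05 there were 1 higher and 1 lower on the authors' scale (2.57% and 3.57% of all genes) and 0 higher and 1 lower on the quantile scale (2.82% and 4.63%). By adjusted p 0.259% of all genes were called higher and 0.209% lower on the authors' scale, and 0.352% and 0.326% on the quantile scale. On the authors' scale 18 members had every F array above every E array, against 3.1% of all genes, and 19 were called higher and 1 lower with only the F and E arrays in the fit, against 2.39% and 2.4% of all genes. Rpsa was one of these 18, with 19274, 18239, 17888, 18981 and 18239 in F and 14085, 15944, 12473, 15030 and 14943 in E. On the quantile scale 3 members had every F array above every E array, and 2 had every F array below. The share of all genes was not counted there. The 99th percentile of the arrays was 10660 to 11000 in F and 9988 to 10500 in E.

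Across the whole path, mature fraction F against CLP, 14 of 47 members were called higher and 4 lower, where 15.2% of all tested genes were called higher and 26.6% lower. The median member differed by 0.18 and all tested genes by -0.15. After quantile normalization 3 were called higher and 15 lower, where 15.7% and 29.2% of all genes were, the lower share being near that of all genes. The median was then -0.168 for the members and -0.176 for all tested genes. On the authors' scale the F arrays lay above all CLP arrays for 20 members (13.7% of all genes) and below them for 6 (22.6%). On the quantile scale they lay above for 4 and below for 17, with no share of all genes counted. Of the 14 higher, 10 were in the small subunit, among them Rps29 (0.79, SE 0.21, adjusted p = 0.0018), Rps28 (0.79, SE 0.29, adjusted p = 0.0281), Rps20 (0.75, SE 0.20, adjusted p = 0.00206) and Rps14 (0.72, SE 0.19, adjusted p = 0.00158). Rpsa was 0.18 (adjusted p = 0.567) on the authors' scale and -0.41 (adjusted p = 6.34e-05) after quantile normalization. Rpl7a, Rpl10a and Rpl22 were likewise called lower only after it, at -0.56, -0.52 and -0.44.

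A small set of members kept its call between F and CLP under all 10 other settings tried: Rpl11 and Rps28 higher, and Rpl14, Rps27l and Rpl3l lower. Rpl11, Rpl14 and Rpl3l have 1 probe set of 1 symbol each, so settings that change the probe set could not move them. Rpl14 is also named on 5 probe sets shared by several symbols and Rpl11 on 1, and these were not read. Rps28 and Rps27l have no probe set without a suffix and kept the same one in that setting, and Rpl3l is near the bottom of the arrays. Rpl11, which with Rpl5 and 5S RNA binds the p53 regulator Mdm2, had signals of 18013, 19887, 21509, 20156 and 23700 in F, against 10946 to 12784 (median 12107) in CLP. The groups did not overlap; the difference was 0.78 (SE 0.13, adjusted p = 2.76e-06), and 0.35 (SE 0.09, adjusted p = 0.00118) after quantile normalization. Rps28 had 24956, 25431, 26317, 25191 and 26269 in F, against 12435 to 16090 in CLP, and its quantile difference was 0.21 (SE 0.09, adjusted p = 0.0494). Rpl14 had 948, 981, 950, 1027 and 1233 in F, against 2227 to 3221 (median 2815) in CLP, a difference of -1.40 (SE 0.23, adjusted p = 2.83e-06) and of -1.47 after quantile normalization. Every F array lay below every CLP array. It has a single probe set here, which was also called lower in A against CLP and in D against C.

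Rps27l, a paralogue of Rps27 whose gene is a target of p53, was lowest by mean in F. Its signals were 4472 to 6016 (median 4984) in CLP, 2423 to 6860 (median 6016) in A and 3486 to 8102 (median 6730) in B. They were 7342, 6814, 3696, 5129 and 4059 in C, 2935, 2883, 3918, 2960 and 3748 in D, 1976, 2908, 2443, 2198 and 2419 in E, and 1888, 1754, 2173, 2097 and 2085 in F. All F arrays lay below all CLP arrays, and the difference was -1.33 (SE 0.21, adjusted p = 2.54e-06), or -1.42 after quantile normalization. Its 3 probe sets gave -1.27 to -1.33. Rps6 was lower by 0.82 on the log2 scale (difference -0.82, SE 0.21, adjusted p = 0.00159), with 1589, 890, 1570, 1838 and 1828 in F, against 1987 to 3152 (median 2788) in CLP, but its dimmer probe set differed by 0.91 in the other direction. A further 9 probe sets that name Rps6 with other symbols were not read. In A against CLP, Rpl27, Rpl27a and Rps28 were the 3 of 33 members called higher that kept the call under all 10 settings; the setting without suffixes left the probe sets of Rps28 and Rpl27a as they were. In bulk RNA of a sorted fraction, fewer cells that use a gene and less of its RNA in each cell cannot be told apart.

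**Figure D5:**
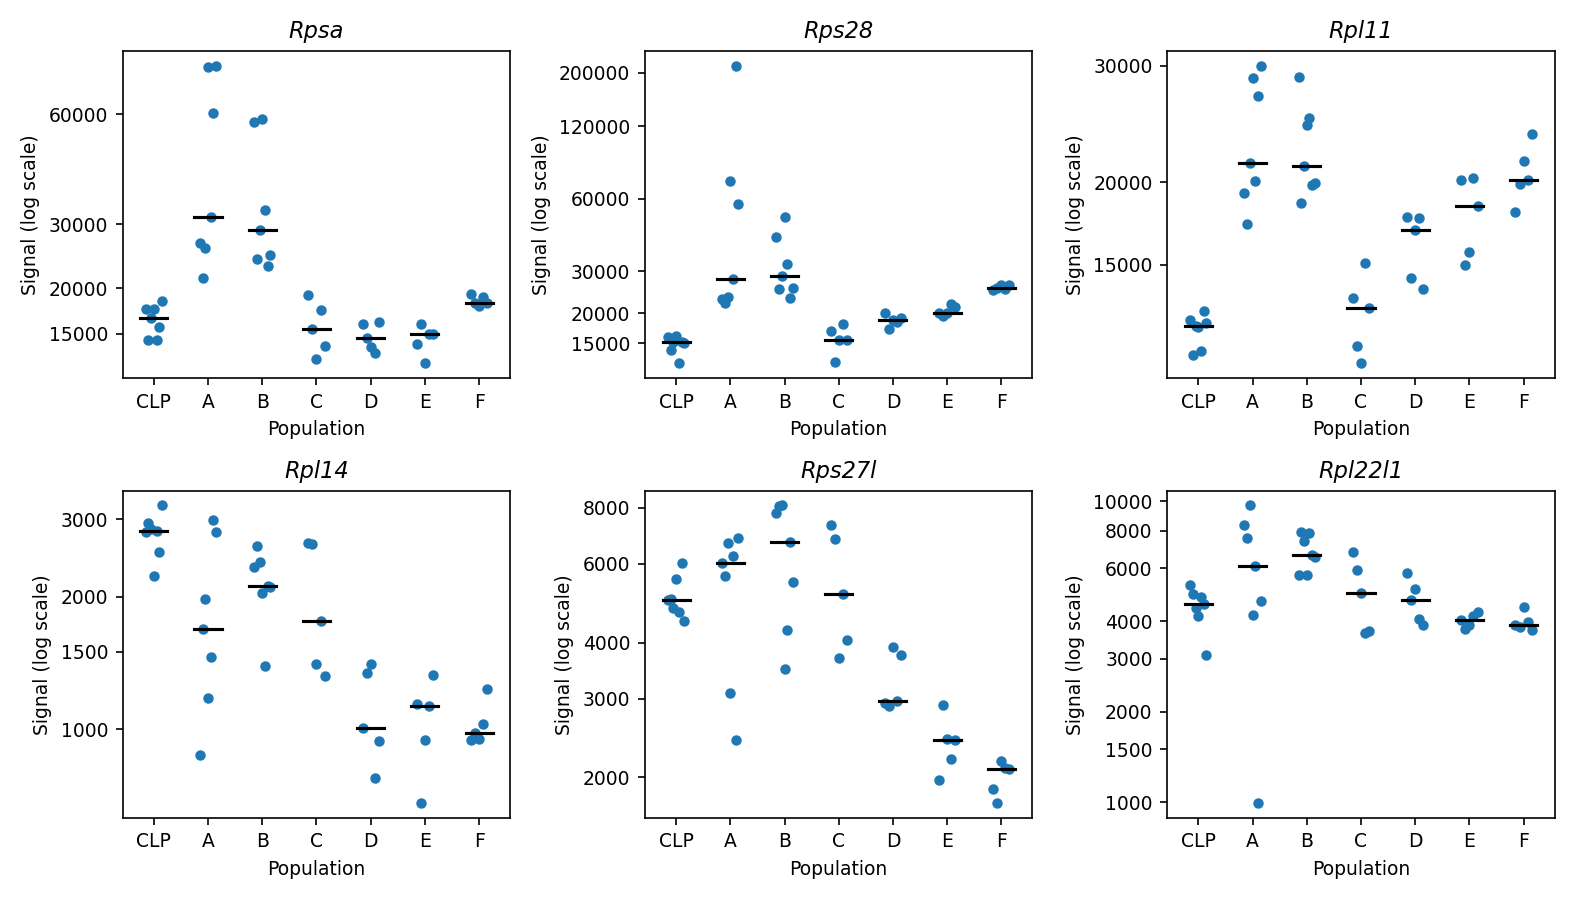
Each point is the signal of 1 array on a log scale, by population from CLP to F, and the line is the median, for 6 members. Rpsa and Rps28 are high in A and B, Rpl11 is above CLP in A, B, D, E and F, Rpl14 and Rps27l are below CLP in D, E and F, and Rpl22l1 has 1 A array at 993.

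Paralogue pairs were compared by the difference between both genes within an array, tested between populations with an exact two-sided permutation test and adjusted over 35 tests (5 pairs in 7 comparisons) on each scale. Rpl7l1, a paralogue of Rpl7, changed relative to it on the brightest probe set of each: the difference Rpl7l1 minus Rpl7 was 0.96 lower in D than in C (change -0.96, exact p = 0.00794, adjusted p = 0.0309), 0.61 higher in E than in D (exact p = 0.00794, adjusted p = 0.0309) and 0.70 lower in F than in E (change -0.70, exact p = 0.00794, adjusted p = 0.0309). With 5 arrays against 5, 0.00794 is the smallest p the test can give, and on the quantile scale the 3 changes were -0.75, 0.63 and -0.63 (adjusted p = 0.0463 each). The pair also passed in F against CLP (change -0.86, exact p = 0.00126, adjusted p = 0.0309; quantile -0.60, adjusted p = 0.0441), and in A against CLP on the authors' scale alone (change -1.17, exact p = 0.00233, adjusted p = 0.0309). Rpl7l1 had signals of 2139, 2090, 1696, 1492 and 1326 in C, 902, 939, 711, 994 and 1118 in D, 1314, 1305, 1460, 1246 and 1498 in E and 744, 844, 974, 885 and 939 in F. The D and F arrays lay below all C and E arrays. These are values of the brightest of its 3 probe sets, and the others differed: for Rpl7l1 itself the 3 gave -0.87, -0.45 and -0.49 in D against C, 0.54, 0.07 and 0.48 in E against D, -0.62, 0.18 and -0.13 in F against E, and -0.67, -0.13 and 0.00382 in F against CLP. Rpl7 had signals of 9978 to 11865 in C, 10345 to 11796 in D, 9991 to 11560 in E and 10459 to 12112 in F.

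Rps27l minus Rps27 was lower in F than in CLP by 1.51 (change -1.51, exact p = 0.00379, adjusted p = 0.0309; -1.57 and adjusted p = 0.0463 on the quantile scale), although the Rps27 probe set reached the array median on only 20 of 41 arrays. Rpl22l1, which Rpl22 represses in mice, was not called in any comparison. Its signals were 3082 to 5276 (median 4568) in CLP, 993 to 9692 (median 6111) in A, and 3865, 3813, 4458, 3964 and 3747 in F. The difference Rpl22l1 minus Rpl22 changed by -0.92 in A against CLP (exact p = 0.169, adjusted p = 0.311) on the authors' scale and by 0.07 (adjusted p = 0.9) on the quantile scale, and no comparison of this pair passed the adjustment. Rpl39l, a paralogue of Rpl39 known from testis, and Rpl39 did not pass in any comparison either. Rps4l minus Rps4x, the last pair, passed in C against B, F against E and F against CLP on the authors' scale (adjusted p = 0.0309 each). The changes were 0.93, -1.34 and -1.40. After quantile normalization only F against E passed (change -1.13, adjusted p = 0.0463). These changes rest on values near the floor. Rps4l had signals of 96.0, 59.1, 15.7, 5.2 and 3.7 in F and 105, 93.6, 94.3, 99.1 and 78.0 in E, all below the median of their array.

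Neighbouring gene lists, chosen with earlier results of these data known, were set beside the members. Of translation factors and other TOP genes, 12 of 16 tested were called higher and 1 lower in A than in CLP, and 0 higher and 11 lower in C than in B. After quantile normalization 0 were higher and 5 lower in A, and 4 higher and 1 lower in C. Of all tested genes 11.5% were called higher and 25.5% lower in A than in CLP, and 14.2% and 8.8% in C than in B. On the quantile scale these shares were 12.5% and 21.1% in A, and 8.59% and 7.16% in C. On the authors' scale Tpt1, a TOP gene for a translationally controlled protein, differed by 1.14 in A (SE 0.17, adjusted p = 1.04e-06) and Eif4b, a helicase cofactor, by -0.53 (SE 0.19, adjusted p = 0.027). Of 13 tested genes of mTORC1 and cap binding 4 were called higher and 3 lower in A than in CLP, the lower share being near that of all genes. With quantile normalization 2 were called higher and 1 lower, the higher share being near that of all genes. Of 22 tested genes of ribosome assembly 5 were called higher and 5 lower in A than in CLP (0 higher and 7 lower with quantile normalization), the lower share again near that of all genes, and 0 higher and 12 lower in C than in B (11 lower). In that list 13 were called lower and 0 higher in D than in C (12 lower with quantile normalization), 3 higher and 0 lower in E than in D (7 higher), and 10 lower and 1 higher in F than in CLP (13 lower and 0 higher). Nolc1, a nucleolar chaperone, differed by -2.04 (SE 0.24, adjusted p = 5.58e-08) and Fbl, the methyltransferase of ribosomal RNA, by -1.75 (SE 0.24, adjusted p = 9.99e-07) in D against C. Polr1a, the catalytic subunit of RNA polymerase I, was higher in E than in D by 1.37 (SE 0.30, adjusted p = 0.00138). Of 76 tested mitochondrial ribosomal protein genes, 26 were called higher and 1 lower in B than in A, 24 lower and 0 higher in D than in C, and 36 lower and 0 higher in F than in CLP, with 26, 29 and 38 such calls after quantile normalization. Of all tested genes 16.8% were called higher and 14.5% lower in B than in A, 13.6% lower in D than in C, 3.89% higher in E than in D and 26.6% lower in F than in CLP. After quantile normalization the same shares were 17.8% and 13.1%, 15.8%, 5.01% and 29.2%, in that order. For the mitochondrial list the median in A against CLP was -0.36 on the authors' scale, where that of the cytosolic members was 0.72 and that of all genes -0.22. On the quantile scale the 3 medians were -0.21, -0.05 and -0.11, so the opposite signs held on the authors' scale alone.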

How the data were processed

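The deposited intensity values were made by the authors with MAS5 (per the submitters' processing notes, version unstated); every array has a trimmed mean of 500 after removal of 2% of probe sets at either end. Sources used here name no genome build. Of 45101 probe sets 64 were controls, 34945 others had 1 symbol and 932 several in the platform annotation. Each gene was read from its probe set with the highest mean log2(signal + 32), and a gene was tested if it reached the array median on at least 5 of 41 arrays. The pseudocount of 32 understates changes of dim genes. One limma 3.58.1 fit (R 4.3.3, eBayes with trend and robust, statmod 1.5.0; data.table, version 1.17.8) with 7 population means gave all differences, F-tests and Benjamini-Hochberg adjusted p-values over 11947 genes. When data were simulated with a separate spread for every population, false calls were more frequent in A against CLP and in B against A than in the other comparisons. Quantile normalization was applied to all probe sets on the log2 scale.

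Members, lists and tests were chosen with earlier results of these data known. Any member could be named. Values were given for up to 5 called members with the largest differences per direction and comparison, the 6 largest F statistics, the 6 lowest correlations with the median member, members of lowest signal, paralogue pairs, stalk proteins, Rpsa, Rps6, Rpl11, Rps19 and Rpl38, and up to 2 called genes per list and direction; further members were picked after their values were seen. Alternatives were quantile normalization, median centring, other pseudocounts, no filter, averaging all probe sets of a gene, probe sets without suffix, array weights, a replicate block, fits of 2 populations and each array left out. Leaving out A arrays 4, 6 and 7 or B arrays 1 and 4, subtracting the median member, the paralogue tests and the split at 13 were added after seeing the data. The number of arrays limits precision.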

Additional observations from a re-analysis of the deposited data

Results flagged for a closer look

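In 5 of 140 groups of 5 or 7 arrays, checked for 19 named members and for the median member in each population, 1 array lay far from the others by Dixon's criterion (chance flags about 1 in 20 groups). Rpl22l1 had a signal of 992.7 in A array 6, where the next lowest A array had 4193. Rpl14 had 1391 in B array 5, with the nearest B array at 2040. D array 2 was low for Rps9, with 18100 and a nearest value of 21040, and for Rps6, with 1319 and a nearest value of 1803. Rps6 had 890.3 in F array 2, where the nearest F array had 1570.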

How the results depend on the processing

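Quantile normalization changed the most. It turned the median of the members in A against CLP to -0.0542, in C against B to 0.0406 and in F against CLP to -0.17, and moved it to -0.30 in D against C and 0.0380 in F against E. Calls became 5 higher and 6 lower in A against CLP, 2 lower in C against B, 19 lower in D against C, 1 higher in E against D, and 3 higher and 15 lower in F against CLP. It also turned Rps29 (-0.0542) and Rpl13a (-0.0222) in A against CLP and Rps29 (-0.12) in F against CLP.

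With array medians centred there was 1 lower in A against CLP, 0 higher in C against B with a median of -1.10 (main -0.67), and 1 lower in D against C. Averaging all probe sets of a gene gave 4 higher in B against A, 2 higher and 4 lower in D against C and a median of 0.0485 in F against CLP; it turned Rps20 in A against CLP (-0.0752) and Rps6 in F against CLP (0.0448). Probe sets without a suffix gave 8 lower in A against CLP, 5 higher in B against A, 4 lower in D against C and 7 lower in F against CLP, and turned Rps20 in A against CLP (-1.69) and in C against B (0.0798) and Rps9 in C against B (0.36). They put the median member at percentile 98.94 for CLP, 98.53 for A, 98.79 for B, 98.88 for C, 97.56 for D, 97.84 for E and 98.14 for F, and no filter on low values at 99.44 for CLP, 99.47 for B, 99.52 for C, 99.1 for D, 99.12 for E and 99.22 for F. No filter also gave 1 higher in C against B, and the larger pseudocount gave 2 lower in B against A.

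Array weights gave 1 lower in A against CLP, 0 higher in B against A, 6 higher and 14 lower in D against C, 3 higher and 1 lower in E against D, 6 higher and 2 lower in F against E, and 23 higher and 9 lower in F against CLP. Fits of only the 2 populations gave 1 lower in A against CLP, 0 higher and 0 lower in B against A, 6 higher and 10 lower in D against C, 5 higher and 1 lower in E against D, 19 higher and 1 lower in F against E, and 25 higher and 9 lower in F against CLP. Without A arrays 4, 6 and 7 there was 1 lower in A against CLP and 7 higher in B against A; without B arrays 1 and 4 there were 14 lower in B against A and 1 higher in C against B. These last 2 settings were chosen after seeing the data. The cause of these changes was not tested. No share of all tested genes was counted for array weights, centred medians, averaged probe sets or probe sets without a suffix. Nor was it counted without the filter, with other pseudocounts, with the replicate block or with 1 array left out. The same holds for fits of only 2 populations in A against CLP and F against CLP. Member counts under these settings therefore cannot be set against those of all genes.

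With 1 array left out in turn, A against CLP had 32 to 35 higher and 2 to 4 lower, B against A 1 to 3 higher and 1 to 6 lower, C against B 0 to 2 higher and 30 to 34 lower, D against C 0 to 1 higher and 0 to 3 lower, and F against CLP 12 to 14 higher and 4 to 5 lower. Same-numbered arrays did not deviate together: in no comparison was the correlation of every pair over 0.1, so the numbers were not taken to pair the samples. With the replicate number as a block, D against C had 1 higher and the other 21 counts and medians stayed within 1.5 times the main count or 1 SD; no other call was changed by it among the named genes. Signals near the array floor limit what Rps27, Rps4l, Rpl39l and Rpl3l can show.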
